A study of Homo sapiens with 2 samples.

Results

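The mitochondrial ribosomal protein genes were taken from the deposited isoform table by symbol: every gene named MRPL or MRPS followed by a number, with or without a final A, B or C. The rule found 77 genes with 154 isoforms among 26257 gene symbols, and the FPKM of all isoforms of a gene were added up in each library. FPKM are estimated fragments scaled by transcript length and library size, so levels can be compared between genes. The rule used names and no measured values, but the group was proposed with earlier results of these data known. All 77 genes had a mean FPKM of at least 5 over both libraries, so no member was lost to the filter at a mean of 1 FPKM, which 11688 genes passed.

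Both libraries were made from HCT-116, a line long established from a human colorectal carcinoma. One is titled as the control, and the other as treated, with lysophosphatidic acid (LPA), a signalling phospholipid that was applied at 10 µM for 24 h to cells kept without serum. The labels do not say if serum was withheld from the control as well. With 1 library per group the differences have no replicate check, no p-value is given, and what follows compares these 2 libraries. Poly-A RNA was sequenced with a kit that does not mark strand. Depth, estimated from the smallest FPKM steps, was about 1.67e+07 fragments for the control and 1.57e+07 for LPA, and the FPKM of all genes came to 717768 and 709125. All 7 epithelial marker genes were measured in both libraries, from CDX2 with 9.41 and 10.5 FPKM (control and LPA) to KRT8 with 1208 and 1507 FPKM. EPCAM had 220 and 223 FPKM, and KRT18, with 442 and 741 FPKM, was over 1.5-fold higher with LPA. So were 1.39% of genes with a mean of at least 5 FPKM. The bounds deposited for the most abundant KRT18 isoform overlapped (123 to 723 FPKM for control, 248 to 1139 FPKM for LPA). The 14 fibroblast, immune and endothelial markers examined reached at most 0.289 FPKM.

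Mitochondria carry their own ribosome, which translates the few proteins encoded by mitochondrial DNA, all of them hydrophobic subunits of the respiratory chain and ATP synthase. Its RNA parts are made inside the organelle, whereas its proteins are encoded by nuclear genes, translated in the cytosol and imported. A small subunit reads the messenger RNA and a large subunit joins the amino acids. Some of the proteins descend from those of bacterial ribosomes and others are found in mitochondria alone.

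The mitochondrial ribosomal protein genes differed little as a group between the libraries, while their log2 ratios went with base composition: GC-rich members were mostly higher and AT-rich members mostly lower in the LPA library. All genes with a mean of at least 5 FPKM had the same direction, with a weaker correlation. Added up, the members had 5584 FPKM (control) and 5830 FPKM (LPA), 0.778% and 0.822% of all FPKM, a ratio of 1.04. The log2 ratio of a gene is log2((LPA FPKM + 1)/(control FPKM + 1)). Its median over the 77 genes was 0.03, against 0.01 over the 7762 genes with a mean of at least 5 FPKM. It was above 0 for 47 members (61.0%) and below 0 for 30, where 52.4% of those 7762 genes were above 0. None of the members was at least 1.5-fold higher (background 1.39%), or 4 when the leading isoform, the one with the highest mean FPKM, stood for its gene (background 3.59%), and 1, MRPS18C, was at least 1.5-fold lower (background 1.3%). No member was 2-fold apart in either direction, where 0.271% of genes were 2-fold higher and 0.193% 2-fold lower. With the limit at 1.25-fold, 11 members (14.3%) were higher against a background of 8.71%, and 7 (9.09%) were lower against 9.83%.

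Levels of the members ran from 6.01 to 293 FPKM in control cells and from 7.38 to 320 FPKM with LPA, with medians of 58.2 and 60 FPKM. In what follows, a pair of levels is given with the control first. Cytosolic ribosomal protein genes had medians of 3574 and 3449 FPKM over 82 measured genes. The order of levels was much alike in both libraries, with a Pearson correlation of 0.97 of log2 FPKM across the 77 genes, which are not independent and share the depth of their library.

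**Figure D1:**
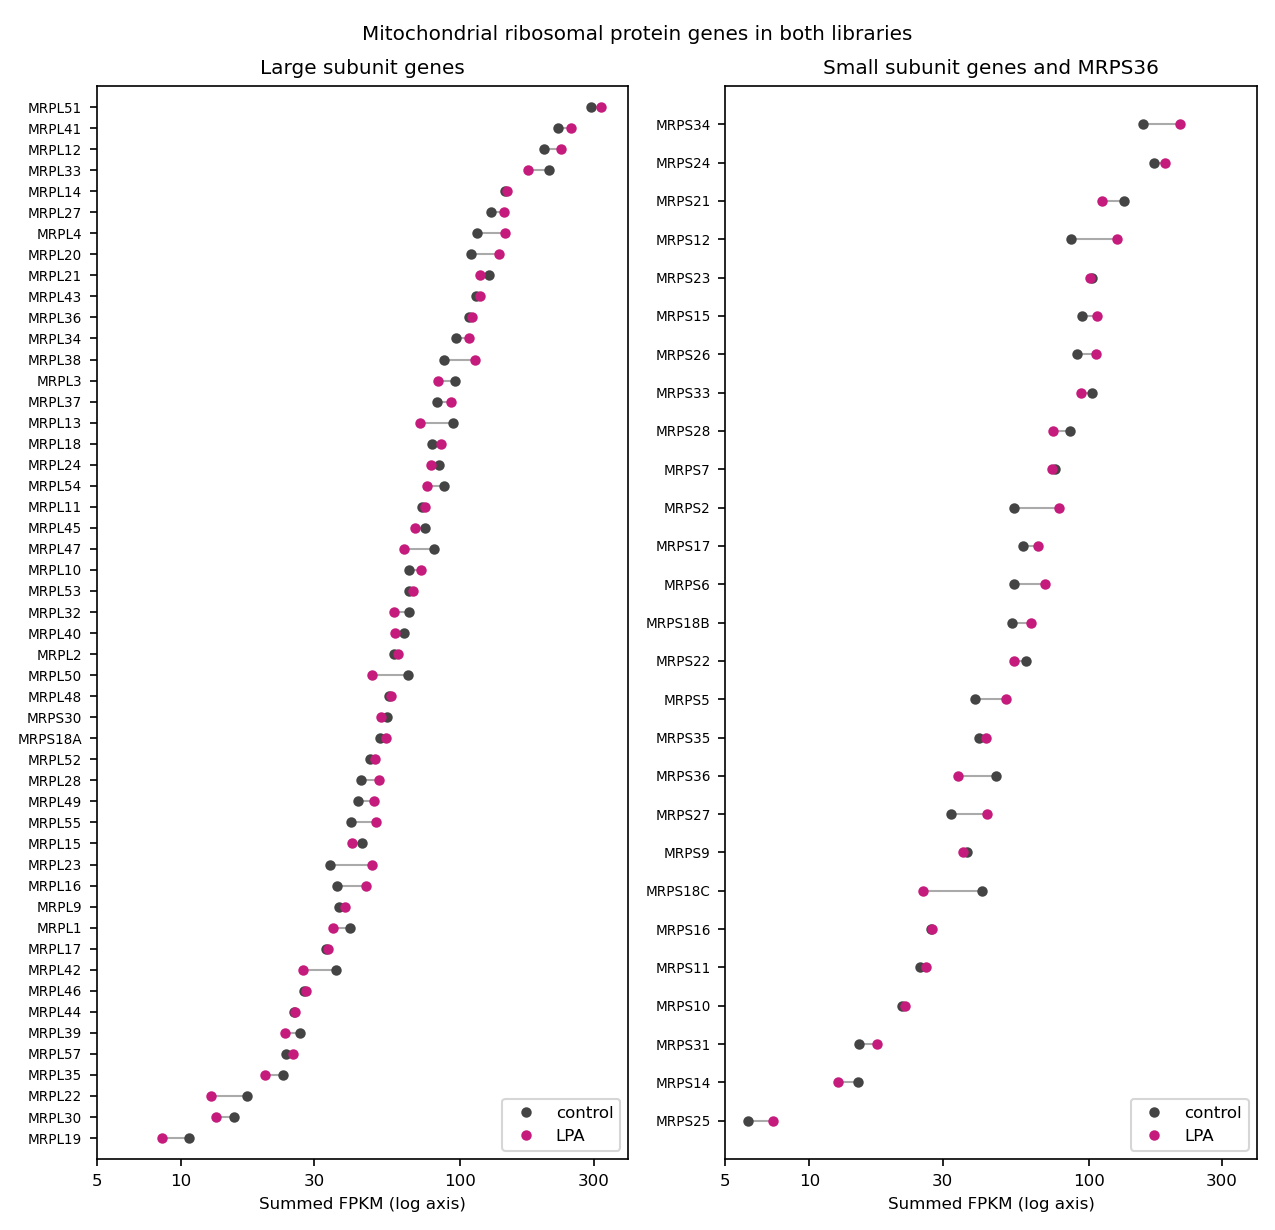
Summed FPKM (log axis) of each mitochondrial ribosomal protein gene in the control (grey) and LPA (pink) library, large subunit on the left and small subunit with MRPS36 on the right, ordered by mean FPKM. MRPL51 is at the top with 293 and 320 FPKM, and MRPS25 at the bottom with 6.01 and 7.38 FPKM.

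The highest level was that of MRPL51, a large subunit protein found in mitochondria alone, with 293 and 320 FPKM (chromosome 12, 6492150 to 6493305; all loci are hg38). MRPL41, another protein of that kind, followed with 224 and 250 FPKM. MRPL12, the stalk protein that recruits translation factors, had 200 and 230 FPKM. The deposited bounds of the control values were 213 to 373 FPKM for MRPL51, 162 to 285 FPKM for MRPL41 and 145 to 254 FPKM for MRPL12, so neighbours in this order were not set apart. MRPL33 had 208 and 175 FPKM, MRPS34 157 and 211 FPKM, and MRPS24 172 and 188 FPKM. These 6 genes were all higher in the LPA library except MRPL33. At the other end stood MRPS25 (6.01 and 7.38 FPKM), MRPL19 (10.7 and 8.54 FPKM), MRPS14 (14.9 and 12.6 FPKM), MRPL30 (15.5 and 13.4 FPKM), MRPL22 (17.2 and 12.8 FPKM) and MRPS31 (15.1 and 17.5 FPKM). Of these 6 low genes 2, MRPS25 and MRPS31, were higher in the LPA library.

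The precision of a single gene can be gauged from the estimated number of fragments behind it. The median member had about 1279 (control) and 1141 (LPA) fragments, and the lowest number was 337. Counting alone then gives the log2 ratio a standard error of 0.03 to 0.11, and 48 of 77 members (62.3%) had a log2 ratio of more than 2 such errors, against 53.4% of the genes with a mean of at least 5 FPKM, which differ from the members in depth. These errors leave out variation between cultures and the assignment of fragments to isoforms, and they are too small for short transcripts, whose fragment numbers are overstated by this estimate. The bounds deposited with the table are wider: no leading isoform had separate bounds in the libraries for any of the 77 members, where 0.721% of genes with a mean of at least 5 FPKM had separate bounds with the LPA value higher and 0.928% with it lower.

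**Figure D2:**
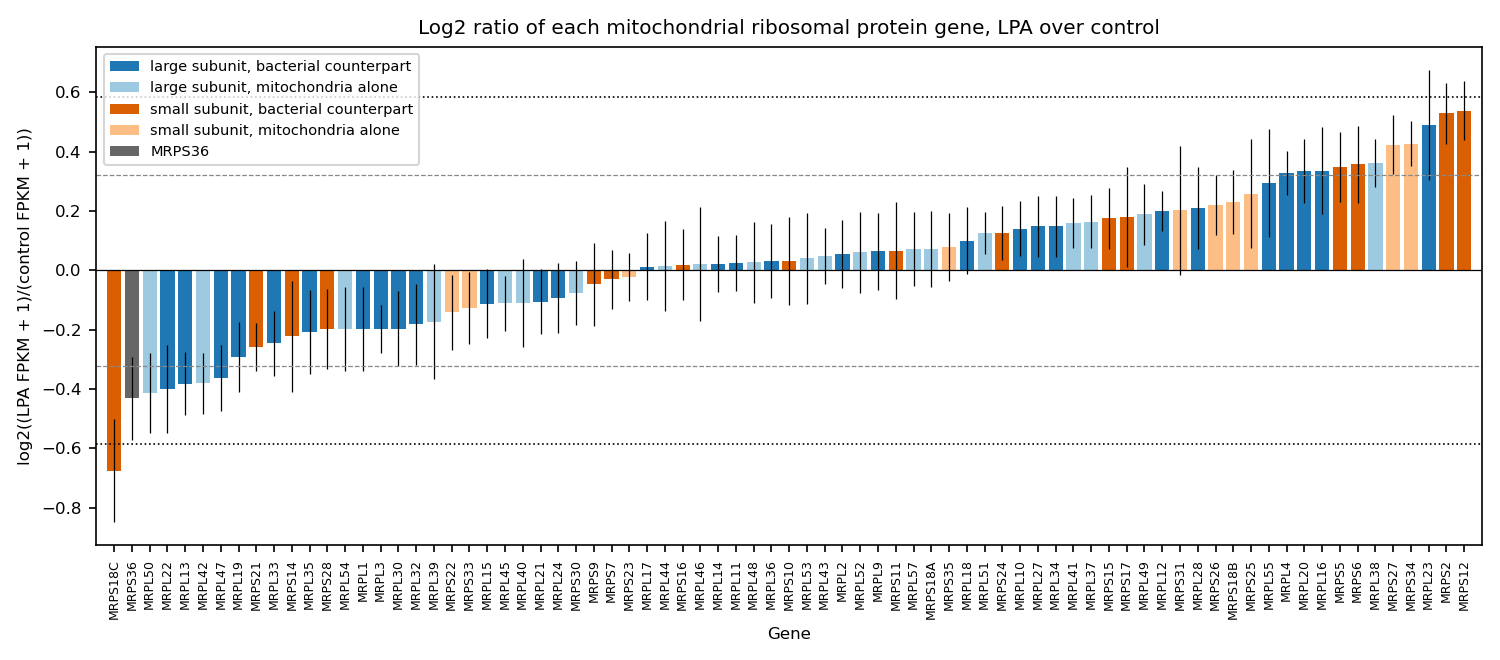
Log2 ratio of each of the 77 genes, LPA over control, in rising order and coloured by subunit and origin, with lines of 2 counting standard errors on each side, dashed lines at 1.25-fold and dotted lines at 1.5-fold. MRPS18C at -0.68 is the lone gene past the dotted lines, and MRPS12 at 0.54 has the highest value.

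Among proteins of the small subunit, which decodes the messenger RNA, 17 of 26 genes (65.4%) were above 0, with a median log2 ratio of 0.10. The background was 52.4% of genes with a mean of at least 5 FPKM. MRPS12, the counterpart of the bacterial protein S12 at the decoding site, had 86.5 and 126 FPKM (log2 ratio 0.54; chromosome 19, 38915264 to 38933019, a span that also takes in SARS2). MRPS2, the counterpart of bacterial S2, had 54.0 and 78.5 FPKM (0.53; chromosome 9, 135500631 to 135506447). MRPS34, a small subunit protein found in mitochondria alone, had 157 and 211 FPKM (0.43), and MRPS27, which carries RNA-binding pentatricopeptide repeats, 32.0 and 43.3 FPKM (0.42). These were 4 of the 5 highest log2 ratios of all members. MRPS6 (54.2 and 69.7 FPKM, in a locus shared with SLC5A3) and MRPS5 (39.3 and 50.4 FPKM) had log2 ratios of 0.36 and 0.35. On the low side were MRPS18C and MRPS21, the counterpart of bacterial S21, with 133 and 111 FPKM (-0.26).

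In the large subunit, which holds the site of peptide bond formation, 30 of 50 genes were above 0 and the median log2 ratio was 0.03. That is a share of 60%, against 52.4% of genes with a mean of at least 5 FPKM. MRPL23, a protein at the mouth of the exit tunnel for the new chain, had 34.2 and 48.4 FPKM (0.49; chromosome 11, 1947272 to 1956609). MRPL38, a mitochondria-only protein of the central protuberance, had 87.3 and 113 FPKM (0.36), MRPL16 36.4 and 46.2 FPKM (0.34) and MRPL20 109 and 138 FPKM (0.34). Lower in the LPA library were MRPL50 (64.99 and 48.5 FPKM, -0.41), MRPL22 (-0.40), MRPL13 (94.2 and 72.1 FPKM, -0.38), MRPL42 (35.9 and 27.4 FPKM, -0.38), MRPL47 (80.9 and 62.7 FPKM, -0.36), MRPL19 (-0.29) and MRPL33 (-0.25). MRPL22 and MRPL47 also lie at the exit tunnel, so genes for proteins of that region were found at both ends of the range. The stalk and its base were flat or slightly higher: MRPL10 had 65.8 and 72.7 FPKM, MRPL11 73.3 and 74.6 FPKM, and MRPL12 a log2 ratio of 0.20. MRPL45, which ties the ribosome to the inner membrane, had 74.7 and 69.0 FPKM. Whether the small and the large subunit differ was not tested, and the middle of both distributions overlapped (quartiles of -0.04 and 0.25 for the small, -0.18 and 0.15 for the large subunit).

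The split by origin gave medians close to each other. MRPS18A and MRPS18B, additional copies of a protein that bacteria have once, were counted with the proteins found in mitochondria alone, and MRPS18C with the bacterial counterparts. Members with a bacterial counterpart had a median log2 ratio of 0.03 (27 of 46 above 0), and members found in mitochondria alone a median of 0.05 (20 of 30 above 0). These shares of 58.7% and 66.7% stand against 52.4% of genes with a mean of at least 5 FPKM. The small subunit genes found in mitochondria alone had 7 of 10 above 0 (70%, same background) and a median of 0.21. On the high side were MRPS34, MRPS27, MRPS25, MRPS18B and MRPS26 (91.1 and 106 FPKM).

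The MRPS18 genes are a family of 3 paralogs descended from 1 bacterial protein, S18, and of them MRPS18C alone was lower in the LPA library. MRPS18A, whose protein sits in the large subunit in spite of its name, had 51.6 and 54.3 FPKM (0.07). MRPS18B had 53.0 and 62.3 FPKM (0.23). MRPS18C, the copy that takes the place of bacterial S18 in the small subunit, had 41.4 and 25.6 FPKM (-0.68, counting standard error 0.09; chromosome 4, 83455932 to 83485137), the lowest log2 ratio of all members. Its leading isoform had deposited bounds of 21.9 to 50.9 FPKM (control) and 14.4 to 32.0 FPKM (LPA), which overlap. MRPS36, named as a ribosomal protein but now known as part of the 2-oxoglutarate dehydrogenase complex, came next with 46.4 and 34.1 FPKM (-0.43).

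**Figure D3:**
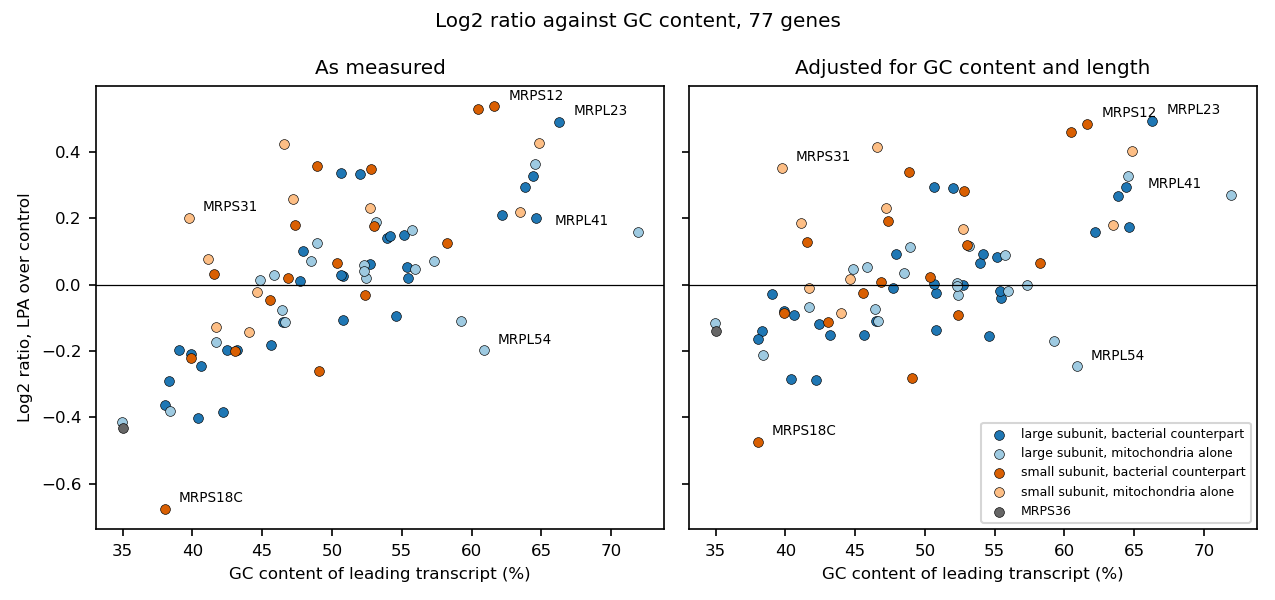
Log2 ratio of the 77 genes against the GC content of the leading transcript, as measured on the left and after adjustment for GC content and length over all genes on the right, coloured by subunit and origin. On the left the points climb with GC content, with MRPS18C low at 38.0% GC and MRPL23 high at 66.3%. On the right the slope is smaller but still there.

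GC content of the leading transcript, read from GENCODE release 29 for all 77 members, moved with the log2 ratio. Across members the Pearson correlation was 0.70 and the Spearman correlation 0.70. The points share 2 libraries, and base composition can act on sequencing as well as differ between genes. Of the 38 members above the median GC content of 49.1%, 33 were above 0, with a median of 0.15. Of the other 39, 14 were above 0 and the median was -0.13. All genes with a mean of at least 5 FPKM had a median GC content of 51.3%. Above it, 2544 of 3866 genes had log2 ratios above 0 (median 0.08), and at or below it 1509 of 3866 (median -0.07). The correlation was 0.78 among the 50 large subunit genes and 0.66 among the 26 small subunit genes. Over all genes with a mean of at least 5 FPKM the correlation was weaker, 0.23 by Pearson and 0.35 by Spearman (7732 genes with a GC value), and over 82 cytosolic ribosomal protein genes it was 0.61.

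Exceptions to this pattern can be named. MRPS31 had a GC content of 39.7% and yet a log2 ratio of 0.20, and MRPS27 46.5% and 0.42. MRPL54 with 60.9% had 87.2 and 75.9 FPKM (-0.20), and MRPL40 with 59.3% had 63.0 and 58.3 FPKM (-0.11). The log2 ratios of MRPS31 and MRPL40 were less than 2 counting standard errors from 0. For MRPS27 the GC content is that of the leading isoform, which by itself had a log2 ratio of -0.05. Transcript length and level were less related to the log2 ratio, with Pearson correlations of -0.13 and 0.22 across members.

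After adjustment of the log2 ratios for GC content and length, by a linear model fitted over all genes, 68 members had the sign they had before and 9 did not. The standard deviation over members was 0.25 before and 0.20 after, the median 0.00, and no member was 1.5-fold apart in either direction. MRPS18C was still the lowest at -0.47, MRPL23 the highest at 0.49, and MRPS12 and MRPS2 stood at 0.48 and 0.46. The low values of MRPL50 and MRPS36 shrank to -0.12 and -0.14. A correlation with GC content of 0.54 was left, so the adjustment fitted over all genes did not take up the whole relation among these members. What part base composition has in the differences was not tested.

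Isoform levels differed between the libraries in a few members, at shares near or below those of all genes. Of the 77 genes 33 had more than 1 isoform in the table. In MRPS27 the isoform NM_001286751 had 2.96 FPKM (bounds 0.244 to 5.67) in control cells and 15.6 FPKM (bounds 8.49 to 22.7) with LPA. It was the lone isoform of a member with separate bounds, among 114 with a mean of at least 1 FPKM. Over all isoforms at that level 2.48% had separate bounds with the LPA value higher and 2.12% with it lower. The leading isoform NM_015084 had 28.6 and 27.7 FPKM, so the higher sum of MRPS27 came from the minor isoform, whose share went from 9.25% to 36.0%. The 2 isoforms differ at the end of exon 1, where NM_015084 continues for 32 nt (chromosome 5, 72320149 to 72320180 in GRCh38, minus strand). They are printed in capitals, between 10 bases of exon 1 that both isoforms share and 10 bases of the intron, because they are the sole difference within the span common to both.
MRPS27: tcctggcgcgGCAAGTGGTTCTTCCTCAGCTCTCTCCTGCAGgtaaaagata

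The annotated coding sequence is 1242 nt with the stretch and 1074 nt without it. PTCD2, a gene on the opposite strand, starts in the same region, and without strand its fragments there cannot be told from those of MRPS27. PTCD2 had 4.10 and 4.53 FPKM.

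MRPL4, the counterpart of bacterial L4 that lines the exit tunnel, had 115 and 145 FPKM in all, and another leading isoform in each library. NM_015956 had 68.8 and 47.4 FPKM, and NM_146387 41.7 and 90.8 FPKM, with bounds of 21.96 to 61.5 and 58.5 to 123 FPKM that overlap slightly. The isoforms carry the same coding sequence and differ by 136 nt before it, which the second has spliced out. The other members with another leading isoform were MRPL35, MRPL55 and MRPS12, making 4 of the 33 genes with several isoforms (background 11.6%). In MRPL35, NM_016622 had 13.5 and 9.31 FPKM and NM_145644 9.75 and 10.7 FPKM. In MRPL39, NM_080794, which has an additional 89-nt exon, had 5.10 and 0.601 FPKM, and NM_017446 had 21.6 and 23.0 FPKM. All these bounds overlapped, as they did for the isoforms of MRPL55 and MRPS12.

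**Figure D4:**
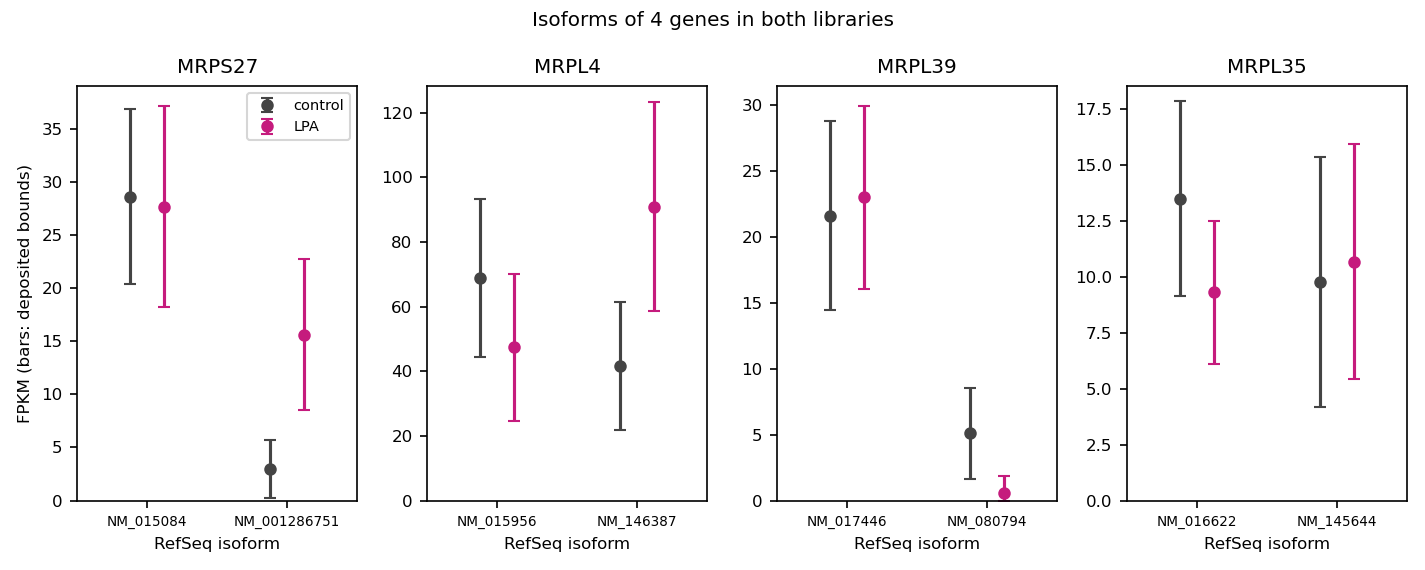
FPKM of 2 isoforms each of MRPS27, MRPL4, MRPL39 and MRPL35 in the control (grey) and LPA (pink) library, with bars for the deposited lower and upper bounds. The bars are separate for NM_001286751 of MRPS27 alone.

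Promoters of nuclear genes for mitochondrial proteins are known to be rich in sites for ETS factors such as GABP, for NRF1 and for YY1. RefSeq windows of 250 bases before to 50 after the start site (GRCh38.p14) were matched by symbol for 68 of the 77 members. Some members had more than 1 window, 84 in all, and 4 motifs were searched on both strands. The ETS core CCGGAAG was found in 29 members (42.6%), against 12.2% of 27305 genes and 23.2% of the 8795 measured genes with a window. In the first window of each member alone, 28 members had it. A 10-base YY1 motif, spelled in capitals in the short sequences that follow, was found in 13 members (19.1%), against 1.46% of all and 3.52% of measured genes. The NRF1 palindrome, GCGCA followed by its reverse complement, was found in 1 member (1.47%, against 1.52% of all and 2.68% of measured genes), and the shorter TGCGCA, taken from the core of NRF1 sites and able to overlap the palindrome in part, in 15 (22.1%, against 9.76% of all and 16.4% of measured genes). A match is a run of letters and not a shown site. Members with and without a match had similar values: the median log2 ratio was 0.04 with and 0.06 without the ETS core, and 0.03 and 0.06 with and without the YY1 motif.

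The 250 bases before the start of MRPS34 and of MRPS18C are shown to compare a member from each end of the range. Both are given 5′ to 3′ on the strand of the gene, from chr16:1773135-1773384 (minus strand) and chr4:83455808-83456057 (plus strand). Capitals mark the ETS core on either strand, found at 3 places in MRPS34 and at 1 in MRPS18C, and TGCGCA, found in MRPS18C. The pair does not stand for the other members. In the full windows MRPS12 and MRPS2, with higher log2 ratios than MRPS34, had 1 ETS match and none, and MRPS22, with a log2 ratio of -0.14, had 3.
MRPS34: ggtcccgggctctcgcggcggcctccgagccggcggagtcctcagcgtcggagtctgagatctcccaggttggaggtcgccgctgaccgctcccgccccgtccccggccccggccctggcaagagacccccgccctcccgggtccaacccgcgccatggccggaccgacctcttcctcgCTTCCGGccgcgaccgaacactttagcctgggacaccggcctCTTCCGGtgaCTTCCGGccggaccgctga
MRPS18C: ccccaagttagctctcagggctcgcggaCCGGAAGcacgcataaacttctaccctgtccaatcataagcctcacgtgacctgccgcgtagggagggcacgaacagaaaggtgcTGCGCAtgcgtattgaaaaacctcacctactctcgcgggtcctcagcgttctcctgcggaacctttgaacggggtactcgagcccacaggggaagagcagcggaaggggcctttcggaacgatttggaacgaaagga

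The YY1 motif holds an ATG, and in 9 of its 13 matches that ATG is the annotated start codon of the gene, as in all those printed here except MRPL42. It is printed in capitals, with 10 bases on each side, for members with log2 ratios from -0.41 (MRPL50) to 0.36 (MRPL38). They are MRPL38 (chr17:75904859-75904888, minus strand), MRPS18B (chr6:30617853-30617882, plus strand) and MRPS24 (chr7:43869479-43869508, minus strand), which were higher in the LPA library, and MRPL42 (chr12:93467512-93467541, plus strand) and MRPL50 (chr9:101398576-101398605, minus strand), which were lower. The motif is the same in all of them and the flanks are not.
MRPL38: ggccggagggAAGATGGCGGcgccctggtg
MRPS18B: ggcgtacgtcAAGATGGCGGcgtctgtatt
MRPS24: cgcttggcccAAGATGGCGGcctccgtgtg
MRPL42: ggattgaaacAAGATGGCGGgttcgtggtg
MRPL50: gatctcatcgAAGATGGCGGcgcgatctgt

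Many members start close to a gene on the opposite strand. By GENCODE, 25 of the 77 had such a head-to-head protein-coding neighbour, with its start between 1000 nt before and 500 nt after their own, and for 21 the neighbour was measured, in 20 distinct pairs. In 16 of these pairs (80.0%) both genes had a log2 ratio of the same sign, while the same held for 382 of 725 other measured head-to-head pairs (52.7%). Some of these signs rest on values near 0, such as those of MRPL46 (0.02) and MRPS11 (0.07). What part base composition has in the shared signs was not tested. MRPS18C and its neighbour HELQ, a DNA helicase gene, were both lower (HELQ 5.82 and 4.11 FPKM). MRPL47 and NDUFB5, a subunit gene of respiratory complex I (89.2 and 72.6 FPKM), were both lower, as were MRPL32 (65.8 and 57.9 FPKM) and the proteasome gene PSMA2 (181 and 138 FPKM). MRPL18 (79.4 and 85.3 FPKM) and the chaperonin gene TCP1 (109 and 140 FPKM) were both higher. MRPL46 and MRPS11, which face each other and encode proteins of different subunits, had 27.6 and 28.0 FPKM and 24.8 and 26.1 FPKM. MRPS12 faces SARS2, the mitochondrial seryl-tRNA synthetase gene, which had 18.4 and 19.3 FPKM, a log2 ratio of 0.06 against 0.54. Signs were opposite in 4 pairs, among them MRPS34 and its neighbour EME2 (1.55 and 0.693 FPKM, near the filter at 1 FPKM). The others were MRPL11 (log2 ratio 0.03) and PELI3 (-0.21), MRPL21 (-0.11) and IGHMBP2 (0.06), and MRPL30 (-0.20) and MITD1 (0.06). Where such genes overlap, fragments cannot be told apart without strand.

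The other proteins of this ribosome go by other names, and 6 of them were in the table. GADD45GIP1 of the large subunit had 215 and 230 FPKM, and ICT1, a peptidyl-tRNA hydrolase built into the large subunit, 58.9 and 50.3 FPKM. In the small subunit AURKAIP1 had 182 and 214 FPKM, CHCHD1 96.3 and 90.3 FPKM, DAP3 79.3 and 82.9 FPKM, and PTCD3 15.6 and 13.5 FPKM. They had log2 ratios from -0.23 to 0.23, with 3 above and 3 below 0 and none at least 1.25-fold apart. Of the 11688 genes 50.2% were above 0, 8.19% at least 1.25-fold higher and 10.4% lower by as much.

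Among 26 factors of mitochondrial ribosome assembly, 18 were above 0 (background 50.2% of the 11688 genes) and the median log2 ratio was 0.13. At least 1.25-fold higher were 3 and lower 2 (backgrounds of 8.19% and 10.4%). The highest were RNMTL1 (14.3 and 20.6 FPKM) and FTSJ2 (13.0 and 17.6 FPKM), both methyltransferases of the large ribosomal RNA, and ERAL1 (22.7 and 29.9 FPKM), a chaperone of the small one. The lowest were LACTB2 (14.4 and 10.3 FPKM), an RNA endonuclease rather than an assembly factor in the strict sense, MTERF4 (8.76 and 6.68 FPKM), which guides a ribosomal RNA methyltransferase, and the endoribonuclease YBEY (37.1 and 30.9 FPKM).

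Of 17 mitochondrial translation factors 10 were above 0 (background 50.2%), with a median of 0.08, 2 at least 1.25-fold higher (background 8.19%) and none lower by as much (background 10.4%). The elongation factor TUFM had 137 and 174 FPKM, the peptide deformylase PDF 32.3 and 41.1 FPKM, and OXA1L, which inserts new chains into the membrane, 61.6 and 75.5 FPKM. GFM2, which helps to recycle ribosomes, had 9.81 and 7.87 FPKM, the release factor MTRF1L 19.5 and 16.8 FPKM, and SLIRP, an RNA-binding protein, 353 and 312 FPKM. The leading isoform of MTRF1L had separate bounds (5.40 to 12.7 FPKM for control, 0.507 to 3.87 FPKM for LPA), as 1.34% of the 11688 genes had with LPA lower and 1.43% with LPA higher, while the sum over its isoforms differed by a log2 ratio of -0.20.

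For transcription and RNA processing of mitochondrial DNA, 11 of 21 genes were above 0 and the median was 0.02, with 2 at least 1.25-fold higher and 3 lower, near the backgrounds of 50.2%, 8.19% and 10.4%. The tRNA-processing enzyme ELAC2 (25.1 and 32.2 FPKM), the helicase SUPV3L1 (14.6 and 18.7 FPKM) and the DNA polymerase POLG (11.8 and 14.0 FPKM) were highest. MTERF1 (9.80 and 7.09 FPKM), the elongation factor TEFM (9.87 and 7.40 FPKM) and TFAM (11.6 and 8.95 FPKM), which packages mitochondrial DNA and starts its transcription, were lowest.

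Of the nuclear regulators of mitochondrial genes 7 of 10 were measured, with a median of -0.10 and none 1.25-fold apart. Backgrounds for that limit were 8.19% higher and 10.4% lower. MYC had 158 and 143 FPKM, YY1 25.2 and 23.4 FPKM, ESRRA 36.6 and 36.9 FPKM, and the coactivator PPRC1 11.97 and 14.8 FPKM. The ETS factor subunits GABPA and GABPB1 had 5.77 and 5.22 FPKM and 4.16 and 4.37 FPKM. NRF1 had 7.46 and 6.31 FPKM in sum, but its leading isoform had 5.57 and 0.0340 FPKM with separate bounds, so other isoforms made up most of the sum there. The coactivator PPARGC1A was at 0.00990 and 0.0100 FPKM.

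**Figure D5:**
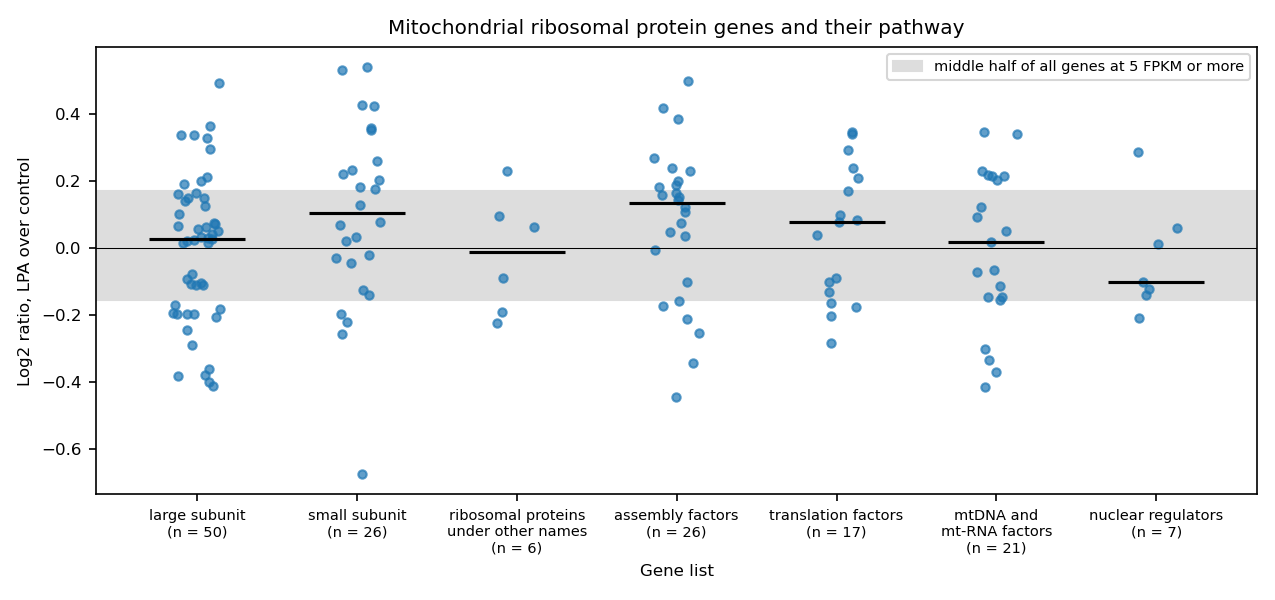
Log2 ratio, LPA over control, of each measured gene in the large and small subunit lists and in 5 lists of the same pathway, with a black line at the median and a grey band for the middle 50% of genes with a mean of at least 5 FPKM (-0.16 to 0.17). Medians run from -0.10 for nuclear regulators to 0.13 for assembly factors, all inside the band.

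For comparison, cytosolic ribosomal protein genes had a median log2 ratio of -0.12 with 22 of 82 above 0. That is 26.8%, against 52.4% of genes with a mean of at least 5 FPKM. Their median GC content of 49.2% was close to the 49.1% of the mitochondrial ribosomal protein genes. The groups were unlike in median length of the leading isoform (713.5 and 1181 nt) and in median control level (3574 and 58.2 FPKM). The difference in log2 ratio between these groups was not tested. Some values are less certain than others: 34 of the 77 members have annotated pseudogenes, 75 in all, that can share fragments, 4 have copies at more than 1 locus, and MRPS24, MRPL53 and MRPS6 share a gene identifier with another symbol in the table. For 18 members, these 3 and MRPS12 and MRPS18C among them, the listed span also holds another gene, which for MRPS12 is SARS2 and for MRPS18C FAM175A.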

How the data were processed

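Poly-A RNA of HCT-116 cells was compared between 1 control and 1 LPA library, whose titles give the group. Tools listed in the submitters' processing notes are TopHat2 2.0.12, Cuffdiff 2.2.0, Cufflinks and bcl2fastq 2.16.0.10, and the build is hg38. Their settings are not stated. The authors deposited FPKM with lower and upper bounds for 63236 isoforms, per the file headers, and the level of the bounds is not stated there. The 16 isoforms with status HIDATA in the LPA library, none of a member, were treated as missing.

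Isoform FPKM were summed per symbol with Python 3.11.15, pandas 2.3.3 and numpy 2.4.6. Log2 ratios used a pseudocount of 1 FPKM and genes with a mean of at least 1 FPKM. Ratios understate differences of low genes. The FPKM worth of 1 fragment was the median of FPKM times length in kb between 0.03 and 0.09, the lowest step, among genes with 1 isoform over 2000 nt. Named genes were the 10 highest and 10 lowest log2 ratios, the 6 highest and 6 lowest levels, members past 1.5-fold or with separate bounds or another leading isoform, the MRPS18 paralogs, stalk genes, MRPL45, MRPS36, ribosomal proteins under other names, 3 genes at each end of each pathway list and measured regulators. MRPL40, MRPL54, MRPL32, MRPL18, MRPL21, MRPL46, MRPS11, MRPS26, the isoforms of MRPL39, and the neighbour genes were named after their values were seen. Members and lists were chosen with earlier results of these data known, and the 1.25-fold limit, the range for the lowest step, the GC adjustment and the neighbour distances were set after values were seen. The 1.5-fold calls and the GC adjustment were tried on simulated data. Isoform sums, bounds, depth, counting errors, motif searches and neighbour pairs were not. Depth limits precision as given with the counting errors. Pseudocounts, filters, isoform choices, centring and GC adjustment were tried as alternatives.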

Additional observations from a re-analysis of the deposited data

How the results depend on the processing

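No paired analysis was possible because each group has 1 library, although both titles carry the number 3. Alternatives were pseudocounts of 0.1 and 5 FPKM, no filter, a filter at 5 FPKM, centring on the median of all genes, the leading isoform in place of the sum, leaving out isoforms under 300 nt or with class code j, and, added after seeing the data, adjustment for GC content and length, leaving out symbols at more than 1 locus, keeping HIDATA isoforms at 0, and counting MRPS18A and MRPS18B with a bacterial counterpart. Medians of lists moved by less than 0.05 under all of them, apart from the GC adjustment. With the leading isoform, 4 members were at least 1.5-fold higher in the LPA library in place of 0 (background 3.59%): MRPL4 (log2 ratio 1.10), MRPL55 (0.67), MRPS12 (0.64) and MRPS2 (0.62), and MRPS27 turned to -0.047, since its higher sum came from a minor isoform. With the GC adjustment, the large subunit median was -0.014, the median of members with a bacterial counterpart -0.0056, that of translation factors 0.13, and 0 members were 1.5-fold lower. For the shifts under GC adjustment the cause was not tested. Centring and GC adjustment give no value for the summed FPKM ratio. Counting error limits single genes to differences of about 0.12 or more on the log2 scale for the median member at 2 standard errors, and the absence of replicates limits every comparison.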
